A study of Capra hircus with 6 samples.

Results

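The interleukin 1 family and its receptors were followed in skin of the goat, sampled with its hair follicles. The 9 genes were IL1A, IL1B, IL1RN, IL1R1, IL1R2, IL1RAP, IL18, IL33 and LOC102181045, which the deposited table describes as interleukin-36 gamma and which is called IL36G here. They were picked by name out of 26951 genes as ligands, antagonist and receptors of one family. IL1R2 was in addition chosen by a measured value, its higher level in white-coated than in black-coated skin, so its difference between the groups is given as a description without a test. Ribosomal RNA was removed from total RNA before sequencing. All 6 libraries came from a crossbred (Boer with Macheng Black) with a black head on a white body, 3 from a black-coated region (black replicates 1 to 3) and 3 from a white-coated region (white replicates 4 to 6). The labels give no age, sex, body site or treatment, and do not say how many goats were sampled. Coat colour and body site cannot be told apart, and the p-values rest on the spread of these libraries alone, part of which may be technical.

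Interleukin 1 alpha and beta act through the receptor IL1R1, which needs the accessory protein IL1RAP to signal. IL1RN occupies IL1R1 without starting a signal, and IL1R2 is a decoy that binds the ligands but lacks the signalling part of the receptor. In mammalian skin, keratinocytes store interleukin 1 alpha and IL1RN and release them on injury, while macrophages are a main source of interleukin 1 beta.

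Between 12648817 and 22085079 reads were assigned to genes per library. Levels are given as CPM, the reads of a gene set against the TMM-scaled size of its library, with the libraries of a group in the order of their numbers. A mean ± SD of CPM is over n = 3 libraries. A log2 fold change compares black with white (negative where black-coated skin was lower) and comes with its standard error, SE. In the black libraries the 8 melanocyte markers summed to 44.5, 917 and 1110 CPM, lowest in black replicate 1. They summed to 4.46 to 6.55 CPM in the white libraries, so the difference went in the direction of the coat labels. Black replicate 1 stood apart from the other libraries. The 9 inner root sheath markers summed to 1164 CPM there and to between 17900 and 24510 CPM in the other 5, and the 13 macrophage markers to 1550 against 243 to 661 CPM. The Y-linked gene LOC108634721 was read 688 times in black replicate 2, at most once in the other black libraries, and 767 to 934 times in the white ones. Y-linked reads thus differed among the black libraries, which came from more than one animal, and went in part with coat colour, since every white library had them and black replicates 1 and 3 did not. Values without black replicate 1 are given for part of the genes and lists. Those with Y-linked reads as a term in the fit are given for the 9 family genes. They are also given for the list of genes induced by interleukin 1 and its named genes. The table is of bulk skin, in which fewer cells of a type and less RNA per cell cannot be told apart.

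Per transcript length, IL1R1, IL33 and IL1RN were the most abundant of the 9 genes and IL1B the least. On the FPKM scale (fragments scaled to transcript length and library size, summed over the transcript rows of a gene), the mean ± SD of all 6 libraries was 17.4 ± 5.49 for IL1R1, 13.04 ± 5.81 for IL33 and 12.9 ± 3.65 for IL1RN. It was 3.17 ± 0.867 for IL1RAP, 3.12 ± 3.07 for IL1R2, 2.14 ± 1.42 for IL18, 2.04 ± 1.95 for IL36G, 1.70 ± 1.27 for IL1A and 0.327 ± 0.311 for IL1B. Of the 8 steps between neighbours in that order, the step from IL1RN down to IL1RAP (a difference of means of 9.72 FPKM) and that from IL1A down to IL1B (1.37 FPKM) were larger than the larger of both SDs. IL1RN lay above IL1RAP in 6 of 6 libraries and IL1A above IL1B in 5 of 6, black replicate 1 being the exception. The other neighbours differed by less than the larger SD. Among them IL1R1 still lay above IL33 in 6 of 6 libraries (a difference of means of 4.33 FPKM), and IL33 had the higher mean of the pair although it lay above IL1RN in 1 of 6 libraries, black replicate 1.

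**Figure D1:**
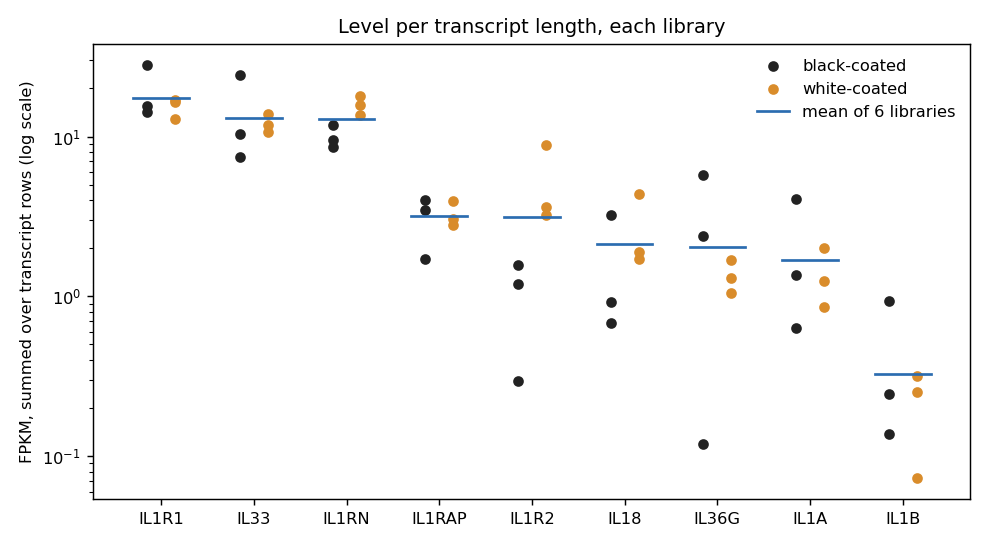
FPKM of the 9 genes on a log axis, one point per library, with a line at the mean of the 6 libraries. IL1R1, IL33 and IL1RN lie highest, and the mean of IL1B, at 0.327 FPKM, lies lowest.

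The decoy receptor IL1R2 was low in all black-coated libraries. It stood at 3.76, 0.861 and 2.77 CPM in the black libraries against 20.03, 8.75 and 7.65 CPM in the white ones, from 53, 12 and 64 reads against 352, 149 and 108. The groups did not overlap, white replicate 4 lay far above every other library, and black replicate 2 was the lowest. The means were 2.46 ± 1.47 CPM on the black side and 12.2 ± 6.85 CPM on the white, 4.93-fold higher in white-coated skin, with a log2 fold change of -2.30 (SE 0.62). Leaving out black replicate 1 gave -2.69, and leaving out white replicate 4 gave -1.73. Both transcript rows of IL1R2 held the same 738 reads.

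IL1R1, the receptor that signals, did not show that separation. It stood at 117, 79.9 and 66.04 CPM in the black libraries and at 74.9, 78.2 and 62.2 CPM in the white ones. Black replicate 1 was highest and the other 5 overlapped. The log2 fold change was 0.29 (SE 0.24), and 0.02 without black replicate 1.

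IL1RAP, the accessory protein that IL1R1 shares with the receptors of interleukin 33 and interleukin 36, had the narrowest fold range of the 9 genes by CPM, though not by FPKM. It stood at 13.3, 9.47 and 12.1 CPM in the black libraries against 14.6, 11.4 and 9.71 CPM in the white ones. The groups overlapped throughout, with a log2 fold change of -0.04 (SE 0.26) whose sign turned with library totals as the scaling. Nearly all of its FPKM fell on the row described as isoform X2, which held 1186 reads, while isoform X1 held 972 reads and was listed near 0 FPKM.

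Set against each other within a library, the signalling receptor outweighed the decoy in every library and by more in black-coated skin. The ratio of IL1R1 to IL1R2 on the FPKM scale was 18.05, 52.9 and 12.07 in the black and 1.87, 4.65 and 3.997 in the white libraries. The groups did not overlap, the lowest black library lying above the highest white one. This ratio carries the values for which IL1R2 was chosen and is likewise given with no test.

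IL1RN, the receptor antagonist, was lower in each black library than in each white one. It stood at 18.9, 25.5 and 29.1 CPM in the black libraries against 44.96, 41.2 and 36.6 CPM in the white ones. The means were 24.5 ± 5.15 and 40.9 ± 4.21 CPM, 1.67-fold higher in white-coated skin. The log2 fold change was -0.74 (SE 0.21), and edgeR's quasi-likelihood test gave an unadjusted p of 0.00983 and a Benjamini-Hochberg adjusted p of 1 over all genes, so IL1RN did not pass. Without black replicate 1 the log2 fold change was -0.58 (adjusted p = 0.387).

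IL1A and IL1B, the agonists that IL1RN competes with, were read at low counts and overlapped between the groups. IL1A stood at 1.56, 3.01 and 8.70 CPM in the black libraries and at 4.55, 2.00 and 2.76 CPM in the white ones. Black replicate 3 was the highest and black replicate 1 the lowest of all 6, and the log2 fold change of 0.52 (SE 0.67) turned to -0.44 without black replicate 3. IL1B rested on 20, 2 and 14 reads in the black and 8, 11 and 9 reads in the white libraries, 0.143 to 1.42 against 0.455 to 0.646 CPM. Black replicates 1 and 2 were its highest and lowest libraries, and the log2 fold change of 0.31 (SE 0.75) turned to -0.52 without black replicate 1.

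The antagonist outweighed both agonists together in every library, by less in black-coated skin. On the FPKM scale the ratio of IL1RN to the sum of IL1A and IL1B was 5.47, 6.325 and 2.72 in the black and 7.97, 13.5 and 10.33 in the white libraries. The groups did not overlap. On the log2 scale the mean was 2.19 ± 0.65 on the black side and 3.37 ± 0.38 on the white, a difference of -1.19. A two-sided exact permutation test gave p = 0.1, the smallest value that 3 against 3 libraries allow, so this design could not have passed 0.05.

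**Figure D2:**
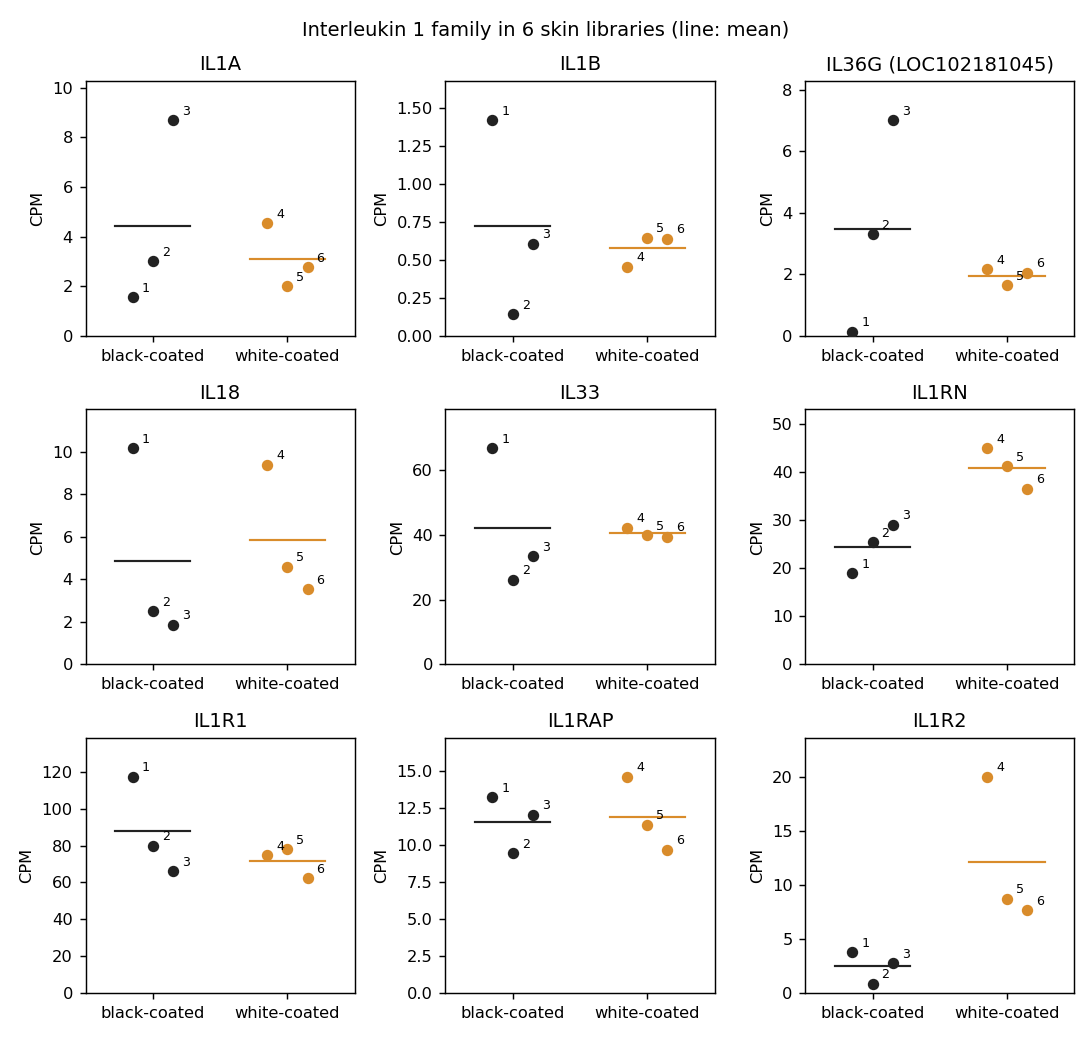
CPM of each gene in each library, numbered by replicate, with a line at the group mean, on axes that start at 0. The black and white points are apart for IL1RN and IL1R2 and overlap for the other 7 genes.

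IL36G, an epidermal cytokine that signals through IL1RL2 and IL1RAP, had the widest fold range of the ligands among the black libraries. It had 2, 46 and 162 reads there, or 0.142, 3.30 and 7.015 CPM, and 38, 28 and 29 reads, or 2.16, 1.65 and 2.06 CPM, in the white libraries. The white libraries lay close together between the lowest and the other black ones. The log2 fold change was 0.85 (SE 0.99), 1.41 without black replicate 1 (adjusted p = 0.387) and -0.18 without black replicate 3.

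IL18, which is activated by caspase-1 as IL1B is, was high in 1 library of each group. It stood at 10.2, 2.51 and 1.86 CPM in the black libraries against 9.39, 4.58 and 3.54 CPM in the white ones. Black replicates 2 and 3 lay below all other libraries. The log2 fold change was -0.28 (SE 0.72), and -1.43 without black replicate 1 (adjusted p = 0.422).

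IL33, an alarm cytokine held in the nucleus of barrier and stromal cells, followed the same split within the black group. Its black libraries stood at 66.6, 26.1 and 33.4 CPM, while the white libraries lay within 39.4 to 42.1 CPM. Black replicate 1 was above and the other black libraries below all white ones. The log2 fold change was 0.05 (SE 0.34), and -0.44 without black replicate 1 (adjusted p = 0.468).

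All 9 genes had enough reads to be tested. By edgeR, 0 of the 8 genes other than IL1R2 passed at an adjusted p of 0.05, each with an adjusted p of 1, and 0 of 15778 tested genes passed, which is 0% of them. At an unadjusted p under 0.05 there was 1 of the 8, IL1RN, against 536 of all genes tested (3.40%). DESeq2 called 0 of the 8 genes and 78 of all genes tested (0.494%). Of the 9 genes, IL1R2 and IL1RN had every black library below every white one, as had 4.99% of all genes tested, and IL1R2 was chosen for that direction. The 9 log2 fold changes had both signs, and the median of all genes tested was 0.02.

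IL1R2 and IL1RN were both read beside markers of the suprabasal epidermis, the keratinocyte layers that differentiate towards the skin surface. Of 15 listed markers 13 were found and tested, 12 with their mean lower on the black side, and none was at 0. Their median log2 fold change was -0.83 (-0.36 without black replicate 1), 5 had an unadjusted p under 0.05 by edgeR and 0 passed. Of all genes tested, 3.40% had such a p and 4.99% had every black library below every white one. KRT10, LOR, KPRP and ASPRV1 had every black library below every white one, with log2 fold changes of -2.97, -2.58, -1.47 and -1.72. KRT1, the partner keratin of KRT10, overlapped at -3.31. The summed level of all 13 markers was 622, 2131 and 3107 CPM in the black and 4695, 3652 and 2623 CPM in the white libraries. On this sum, which weights abundant markers most, the groups overlapped, as black replicate 3 lay above white replicate 6. Its IL1R2 (2.77 against 7.65 CPM) and its IL1RN (29.1 against 36.6 CPM) lay below that library. Within each group IL1RN had the same order of libraries as the marker sum. IL1R2 had that order in the white libraries only. Among the black libraries it was highest in replicate 1, which had the lowest sum. Taken singly, KRT10 (90.8, 25.9 and 36.2 CPM in the black libraries) and LOR (3.55, 2.30 and 2.69 CPM) ranked all libraries as IL1R2 did. KRT1 did so within each group. The remaining markers did not among the black libraries. Of 9 sebaceous gland markers tested, 6 had their mean lower on the black side and 3 had it higher. The 10 found summed to 556 to 907.1 CPM in the black and 918.5 to 1004 CPM in the white libraries, without overlap. The part of the epidermis or of sebaceous glands in either difference was not tested.

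**Figure D3:**
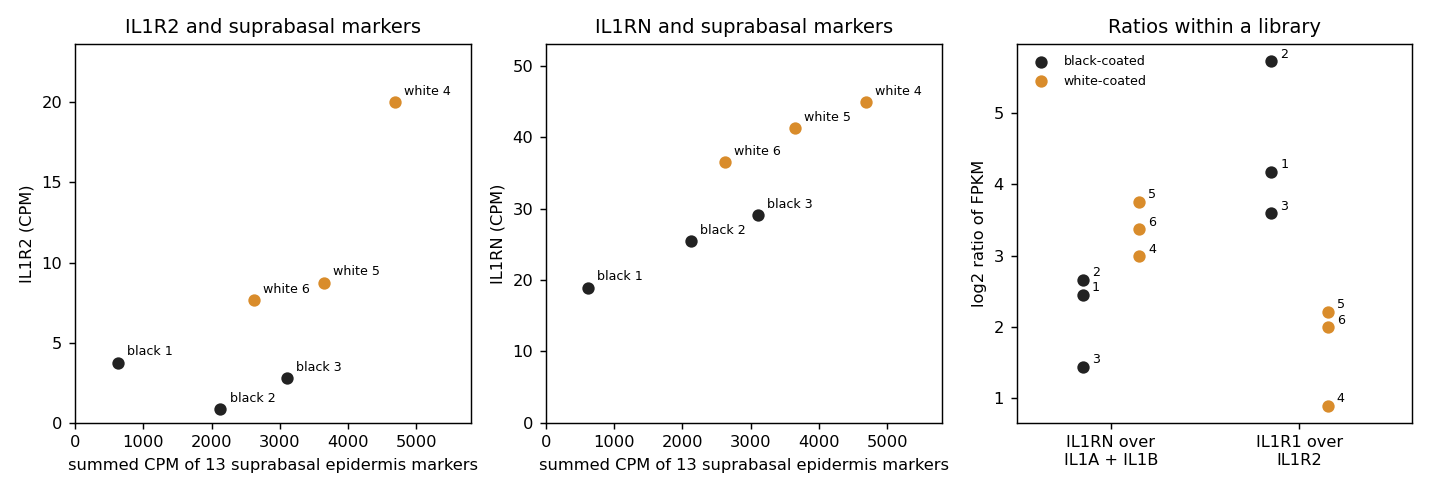
Left and centre, CPM of IL1R2 and IL1RN against the summed CPM of 13 suprabasal epidermis markers, one point per library. Right, log2 ratios of FPKM within each library, where the black and white libraries are apart for both ratios.

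Some genes had nearly the same order and spacing of the 6 libraries as IL1R2 on a log scale, over ranges of different width. Among 11047 named genes with a mean of at least 5 CPM, the highest Pearson r of log2 CPM was 0.993 for BORCS7, a subunit of a complex that positions lysosomes. It was also 0.993 for KRT77, an epithelial keratin, 0.991 for ERLIN2, a protein of the endoplasmic reticulum, 0.987 for KRTDAP, a protein of differentiating keratinocytes, and 0.983 for PSAPL1, which resembles prosaposin. BORCS7 ranged from 12.3 to 18.4 CPM and ERLIN2 from 72 to 98.5 CPM, far narrower than IL1R2, while KRTDAP ranged from 7.82 to 123 CPM. KRT77 stood at 12.3, 2.73 and 10.1 CPM in the black libraries against 79.6, 34.95 and 20.7 CPM in the white ones, so that black replicate 2 was lowest and white replicate 4 highest, as for IL1R2. For IL1A the closest were CASC3 (r = 0.990), ADSS (0.981) and C4H7orf57 (0.975). For IL36G they were SLC20A2, a phosphate transporter (0.9987), ST14, an epithelial membrane protease (0.9975), and SLC1A4, a neutral amino acid transporter (0.9966). All these values share the same 6 libraries and are a description.

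By CPM, IL1B, IL18, IL33 and IL1R1 were each highest in black replicate 1, the library with the highest macrophage sum. On the FPKM scale IL18 was highest in white replicate 4, at 4.38 against 3.22 in black replicate 1. In black replicate 1 the 9 neutrophil markers found of 10 summed to 261 CPM, against 16.7 to 42.4 CPM elsewhere. LTF, which glands also secrete, held 175 CPM of that sum and FCGR3A 67.55 CPM. The highest of the other neutrophil markers in that library was CXCR2, at 8.02 CPM, and MMP8 had 0 reads in all libraries. The 11 T and NK cell markers found of 12 stood at 91.6 CPM against 20.9 to 65.0, and endothelial markers at 1234 against 658 to 884 CPM. The 6 mast cell markers found of 8 stood at 321 against 46.05 to 123 CPM. The part of these cells in the levels of the 4 genes was not tested.

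The receptor genes lie side by side in the ARS1.2 annotation, in the order IL1R2, IL1R1, IL1RL2, IL1RL1, IL18R1 and IL18RAP. IL1RL2, the receptor of the interleukin 36 ligands, stood at 9.58, 14.99 and 17.1 CPM in the black and at 19.6, 25.8 and 19.1 CPM in the white libraries, without overlap (log2 fold change -0.63, SE 0.27). Of all genes tested, 4.99% likewise had every black library below every white one. IL1RL1, the receptor of interleukin 33, stood at 30.01 CPM in black replicate 1 and at 3.05 to 4.72 CPM in the other 5 libraries (log2 fold change 1.67, SE 0.85, and -0.061 without black replicate 1). SIGIRR, an inhibitory receptor of the family that lies elsewhere, had a log2 fold change of 0.04 (SE 0.44), and of -0.51 without black replicate 1. IL18R1 had 0 to 30 reads and IL18RAP 0 to 14 reads per library, most of them in black replicate 1, and neither had enough reads for a test. Of the 7 listed other receptors 6 were found, 3 were tested and 0 passed.

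The ligand genes lie together in the same annotation, from IL1A and IL1B at one end to IL1F10 and IL1RN at the other. Of the 6 other ligands and soluble antagonists listed, all were found, 3 were tested and 0 passed, with a median log2 fold change of -0.38 that turned to 0.16 without black replicate 1. IL36RN, which blocks the receptor of the interleukin 36 ligands, stood at 6.74, 13.1 and 20.8 CPM in the black libraries against 43.4, 25.7 and 20.6 CPM in the white ones (log2 fold change -1.14, SE 0.46), and its groups overlapped at their ends. IL1F10, also known as interleukin 38, was the most abundant by CPM, at 4.47 CPM in black replicate 1 and 49.1 to 139 CPM in the other 5 libraries (log2 fold change -0.38, SE 0.99, and 0.18 without black replicate 1). IL18BP, the soluble inhibitor of interleukin 18, had a log2 fold change of 0.10 (SE 0.30).

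IL37 lay between these genes and was too low to be tested. It had 3, 0 and 0 reads in the black and 86, 58 and 8 in the white libraries. Its neighbour LOC102180231, described as interleukin-37-like, had 0, 5 and 52 reads against 88, 117 and 18. Both were chosen after their values were seen, and reads may be split between such similar genes. IL36A and IL36B had at most 5 reads in any library.

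Of the 95 other genes listed for the pathway, 87 were found and 67 tested, of which 0 passed by edgeR and 5 (7.46%) had an unadjusted p under 0.05. The share over all genes tested was 3.40%. Those 5 were IL36RN, CCL2, S100A9, ZC3H12A and MMP9. Over all 67 tested pathway genes the median log2 fold change was 0.14, beside 0.02 for all genes tested. Among genes of processing and release, 18 of 22 were found and 11 tested, 9 with their mean higher on the black side. CASP1, the gene of caspase-1, was not found, nor were CASP4, GSDME and CMA1. NLRP10, AIM2, PRTN3 and CTSG had 0 reads in all libraries. NLRP1, a sensor of the inflammasome that activates caspase-1, stood at 9.22 CPM in black replicate 1 and at 0.425 to 1.23 CPM elsewhere. PYCARD, the adaptor of that complex, stood at 23.4 CPM in black replicate 1 and at 5.24 to 11.3 CPM elsewhere, and NLRP3, another sensor, at 4.47 against 0.709 to 1.47 CPM. Without black replicate 1 the log2 fold change was 0.22 in place of 2.24 for NLRP1, 0.40 in place of 1.04 for PYCARD and 0.019 in place of 1.05 for NLRP3. The median of the list was 0.38, and 0.038 without that library. CAST, the inhibitor of the calpains that cut interleukin 1 alpha, was the most abundant of the list and stood between 312 and 376 CPM in all libraries (log2 fold change -0.03, SE 0.19).

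The signalling genes had a median close to that of all genes. All 30 were tested, 22 with their mean higher and 8 lower on the black side, 0 of them at an unadjusted p under 0.05, with a median log2 fold change of 0.04. MYD88, the adaptor that binds the activated receptor, stood at 55.7, 67.5 and 68.3 CPM in the black and at 50.5, 51.2 and 56.3 CPM in the white libraries (log2 fold change 0.28, SE 0.16), with overlap at 1 library. IRAK1, the kinase that follows MYD88, had a log2 fold change of 0.45 (SE 0.30) and MAPK9, a stress kinase, one of 0.21 (SE 0.19). PELI1, an enzyme that attaches ubiquitin to IRAK1, was the most abundant, with 37.3 CPM in black replicate 1 and 95.4 to 170 CPM elsewhere (log2 fold change 0.04, and 0.47 without that library).

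Of 30 genes known to be induced by interleukin 1, 27 were found and 20 tested, 16 with their mean higher and 4 lower on the black side. The median log2 fold change was 0.52, 4 had an unadjusted p under 0.05 by edgeR, beside 3.40% of all genes tested, and 0 passed. Without black replicate 1 the median was 0.255, with 15 genes higher and 5 lower. With the Y-linked term it was 0.28, with 12 genes higher and 8 lower. CCL2, a chemokine that draws monocytes, stood at 87.7, 11.5 and 54.6 CPM in the black libraries. The white ones stood at 6.77, 8.93 and 16.01 CPM, with black replicate 2 inside their range. The log2 fold change of CCL2 was 2.28 (SE 0.71), 1.66 without black replicate 1 and 0.13 with the Y-linked term. S100A9, a calcium-binding protein of myeloid cells and stressed keratinocytes, stood at 14.4, 4.02 and 2.99 against 2.28, 1.94 and 1.204 CPM without overlap. Its log2 fold change was 1.97 (SE 0.67), 0.94 without black replicate 1 and 1.14 with the Y-linked term. ZC3H12A, a nuclease that cuts cytokine messengers, also did not overlap, at 21.9 to 47.2 against 12.2 to 21.1 CPM. Its log2 fold change was 0.88 (SE 0.35), 0.48 without black replicate 1 and 0.34 with the Y-linked term. LCN2, an iron-scavenging protein of epithelia and myeloid cells, was named after its values were seen. It was the third target gene without overlap and the one lower on the black side, at 1.70 to 1.95 against 1.99 to 4.11 CPM. Its log2 fold change was -0.67 (SE 0.41), and -0.72 with the Y-linked term. The groups thus did not overlap for 3 of the 20 target genes tested, beside 8.80% of all genes tested, in either direction. MMP9, a gelatin-cutting protease of myeloid cells named after its values were seen, stood at 4.26, 1.15 and 1.95 against 0.740, 1.23 and 0.425 CPM, with black replicate 2 inside the white range. Its log2 fold change was 1.595 (SE 0.65), 0.95 without black replicate 1 and 0.51 with the Y-linked term. SOD2, the mitochondrial superoxide dismutase, was the most abundant, at 74.2 to 119 against 70.35 to 86.1 CPM. Its log2 fold change was 0.36 (SE 0.22), 0.24 without black replicate 1 and -0.092 with the Y-linked term. CXCL8, CXCL1, CCL20, IL6 and CSF3 had too few reads to be tested, and CSF2 had 0 reads in all libraries. All 13 macrophage markers had a mean higher on the black side too, with a median log2 fold change of 1.21 (0.40 without black replicate 1), and summed to 243 to 1550 CPM in the black and 336 to 359 CPM in the white libraries. The part of macrophages in the levels of the target genes was not tested.

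**Figure D4:**
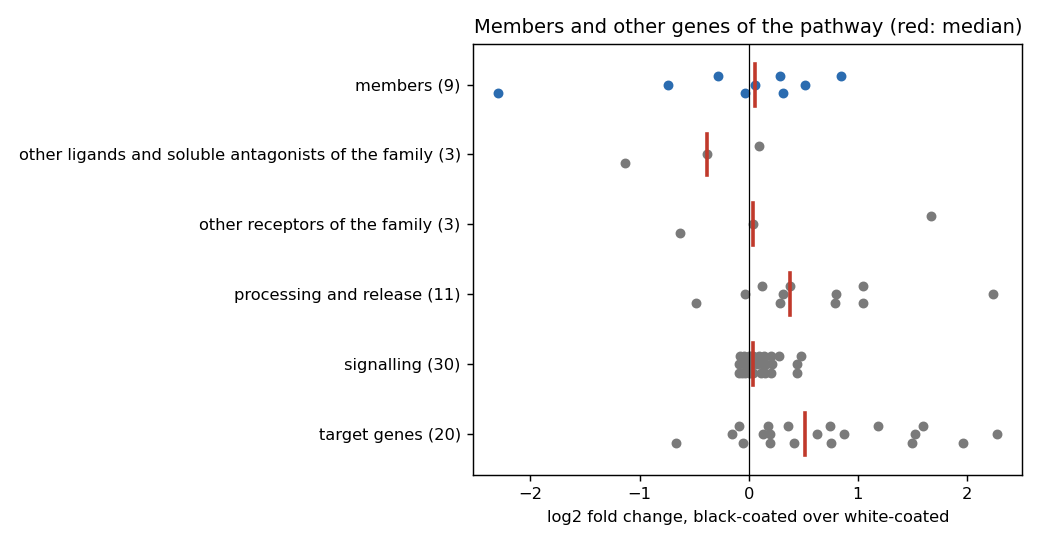
Log2 fold change, black over white, of the 9 family members (blue) and of the tested genes of 5 pathway lists (grey), with red lines at the medians. IL1R2, at -2.30, lies lowest of all points, and the target genes have a median of 0.52.

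With Y-linked reads as a term in the fit, coat colour was in effect compared between black replicate 2 and the white libraries, so these values rest on 1 black library. The log2 fold change was then -3.81 for IL1R2, -0.68 for IL1RN, 0.15 for IL1R1 and -0.33 for IL1RAP. Among the ligands it was -0.045 for IL1A, -1.96 for IL1B, -1.22 for IL18, -0.63 for IL33 and 0.75 for IL36G. IL1A, IL1B and IL33 thus turned from a positive to a negative value, and 0 genes were called. Libraries without those reads were all from black-coated skin, so no comparison could be made among them, and the part of Y-linked reads, and of what goes with them, in the other values was not tested.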

How the data were processed

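Skin of black-coated and white-coated regions was sequenced in 6 libraries. The authors deposited read counts per transcript and FPKM values per transcript, per the file headers. Among the tools listed in the submitters' processing notes are Cufflinks, HISAT2 and Bowtie2 2.0.6, with no role stated. Strand setting, genome build and counting program were not given in the sources used, and reads of overlapping genes cannot be told apart. Rows without a gene name (189, at most 0.0675% of a library's summed rows) and of transfer RNA (1770, at most 0.000467%) were left out. The transcript rows of a gene carried nearly the same reads, the lowest total being 81.96% to 100% of the highest over the 9 genes, and each gene was taken from its row of largest total. FPKM was summed over rows. No sample column was left unused (0 columns).

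The test on counts was that of edgeR 4.0.16, run in R 4.3.3 (filterByExpr, TMM, robust quasi-likelihood fit of black over white, Benjamini-Hochberg over 15778 genes). The SE is the fold change divided by the square root of F. Alternatives used DESeq2 1.42.0, limma 3.58.1, other scalings and filters, a term for Y-linked reads (at least 10) and leaving out each library. The members and lists were chosen with earlier results of these data known. In each pathway list the 3 genes of the smallest unadjusted p and the most abundant gene are named. Of the listed symbols 16 were matched by gene description.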

Additional observations from a re-analysis of the deposited data

How the results depend on the processing

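No paired analysis was possible because the black libraries are numbered 1 to 3 and the white ones 4 to 6 and share no number. Over all genes the number called was 0 in the main analysis, 78 by DESeq2, and 0 to 16 when a library was left out (16 without black replicate 1, 6 without black replicate 2 and 1 without white replicate 4). None of the 8 genes other than IL1R2 was called in any of the 18 settings compared in which it was tested (IL1B was not at a minimum of 1 CPM in 3 libraries), with adjusted p from 0.387 to 1 over the alternatives. IL1R2, IL1RN and IL1R1 kept the sign of their log2 fold change in all 17 alternatives, IL1R2 from -3.81 with a term for Y-linked reads to -1.58 on log2(FPKM + 1), IL1RN from -0.88 to -0.58 and IL1R1 from 0.02 to 0.46. The sign turned for 6 genes, and the cause was not tested. With limma-voom it was -0.12 for IL1B, -0.070 for IL33 and -0.079 for IL36G. With the Y-linked term it was -0.045 for IL1A, -1.96 for IL1B and -0.63 for IL33. With library totals it was 0.0016 for IL1RAP. When a library was left out, the log2 fold change ran from -0.44 to 0.93 for IL1A, from -0.52 to 0.77 for IL1B, from -0.17 to 0.14 for IL1RAP, from -1.43 to 0.24 for IL18, from -0.44 to 0.30 for IL33 and from -0.18 to 1.41 for IL36G. The difference in the log2 ratio of IL1RN to IL1A plus IL1B ran from -1.425 to -0.82 when a library was left out and was -1.08 on CPM, alternatives chosen after seeing the data. IL1B, with 2 to 20 reads per library, and IL36G in black replicate 1, with 2 reads, rest on few reads. The values of pathway genes and lists without black replicate 1 or with the Y-linked term were likewise added after seeing the data.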
